A study of Mus musculus with 8 samples.

Results

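A set of 10 chemokine ligand genes attributed to microglia, Ccl2, Ccl3, Ccl4, Ccl6, Ccl7, Ccl9, Ccl12, Cxcl1, Cxcl2 and Cxcl16, were followed through 8 RNA-seq libraries of sorted mouse microglia. They were taken by symbol from a table of 56832 gene rows, and all 10 had a row. The RNA came from brain microglia that had been sorted by fluorescence from young adult male mice of the 5xFAD line, in which mutant human amyloid precursor protein and presenilin transgenes are expressed in neurons and amyloid plaques form. All 8 libraries, the controls included, came from this line, so no library shows the ligands without amyloid. The saline group (4 libraries) was injected intraperitoneally with saline and the ethanol group (4 libraries) with 3 g/kg ethanol as a 20% solution, on 5 days of each week for 4 weeks. Both groups were then left for 2 weeks without injections before collection. The comparison asks whether the exposure altered the microglial transcriptome after that interval. Libraries are named saline 1 to 4 and ethanol 1 to 4 after their titles. The titles number them as separate samples and do not mention individual mice, so a p-value reflects only how these libraries vary, which may be partly technical.

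Chemokines are small secreted proteins that bind G protein-coupled receptors on leukocytes and glia and draw those cells along a gradient. Their names follow the spacing of the first conserved cysteines, adjacent in the CC ligands (Ccl) and separated by a residue in the CXC ligands (Cxcl). Microglia are a source of CC chemokines in the brain, and several of these genes are induced within hours by Toll-like receptor, cytokine and NF-kB signalling, in brain disease and also when cells are handled during isolation.

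None of the 10 ligands was called higher or lower in microglia of ethanol-treated than of saline-treated mice. The values are normalized counts, that is, reads assigned to a gene divided by a size factor for the library. Of the 10 ligands, 8 averaged 10 normalized counts or more and were tested, and 0 of these 8 passed limma at a Benjamini-Hochberg adjusted p under 0.05. The background was 0 of 14428 tested genes, or 0%. At an unadjusted p under 0.05 limma gave 0 of the 8 ligands, against 524 genes or 3.63% of those tested. edgeR and DESeq2 on recovered reads called 0 ligands and 0 genes as well, with 495 (of 14428 tested) and 777 (of 26782) genes at an unadjusted p under 0.05. In each of the 8 ligands the ethanol and saline values overlapped, while the groups did not overlap for 2.32% of tested genes. Log2 fold changes were positive for 3 ligands (Ccl2, Ccl7 and Ccl12), where 48.8% of tested genes were positive, and negative for 5, with a median of -0.02, beside -0.01 over all tested genes.

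The limits on a difference between ethanol and saline libraries were narrower for the abundant ligands than for the scarce ones. They are 95% intervals of single genes, not adjusted for the number of ligands, and reflect only how these libraries vary. The 95% interval of the fold change lay within 1.5-fold up or down for Ccl4, Ccl6, Ccl9, Ccl12 and Cxcl16, and within 2-fold for Ccl3. For Ccl2 and Ccl7 it reached past 2-fold. Cxcl1 and Cxcl2 could not be tested. Over the 8 libraries the coefficient of variation (SD over mean) was 13.3% for Cxcl16, 16.4% for Ccl9 and 17.8% for Ccl6, where counting error alone gives 3.78%, 2.36% and 1.51%. It was 45.9% for Ccl2 and 63.1% for Ccl7, with 11.1% and 19.2% from counting. The spread of these 5 ligands was thus larger than counting error at their depth.

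**Figure D1:**
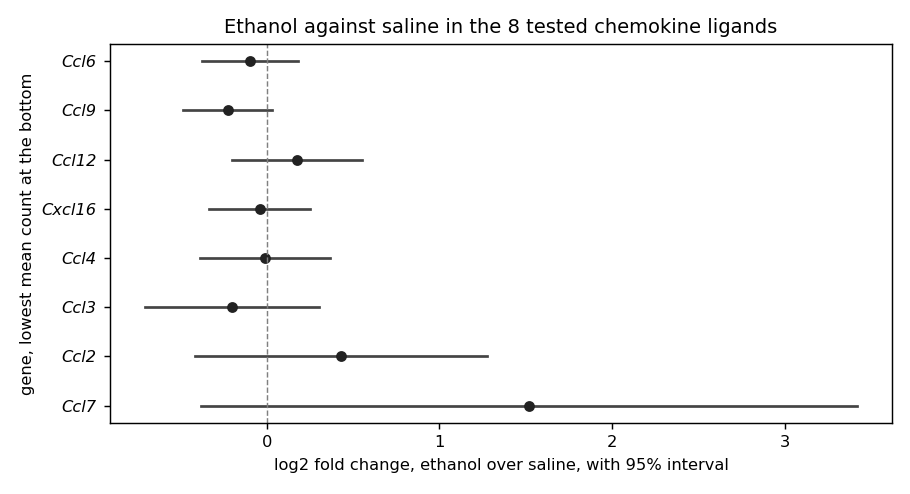
Log2 fold change of each of the 8 tested ligands, ethanol over saline, from limma on log2(normalized count + 1), with the point as the estimate and the line as its 95% interval (4 libraries a group). All 8 intervals cross 0, and the interval of Ccl7, from -0.38 to 3.42, is the widest.

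The libraries held 14271351 to 17231301 assigned reads. All 10 microglial markers used were present at high counts, Tmem119 at 76672 to 87171 and P2ry12 at 160189 to 182438 normalized counts. Transcripts of other cells were present as well. Astrocyte markers (10 of 10 with a mean of at least 10) summed to 7081 to 9003 in saline and 6530 to 9505 in ethanol libraries. Oligodendrocyte markers (5 of 10) summed to 2950 to 3247 and 2868 to 3322. Lymphocyte, neuron, and endothelial and mural markers summed to at most 1053, 428 and 544 in any library. Border macrophage markers (9 of 10 with a mean of at least 10) summed to 522 to 2542 in saline and 824 to 1370 in ethanol libraries, and monocyte markers (9 of 10) to 584 to 1214 and 460 to 1302. Neutrophil markers (10 of 10) summed to 11251 to 22602 and 10705 to 19005, of which Csf3r, at 7473 to 8676 in every library, was a large part. The SD of Csf3r over the libraries was 4.24% of its mean, beside 4.36% for Tmem119 and 4.58% for P2ry12. Which cells the Csf3r reads came from was not tested. Without Csf3r, a step added after its level was seen, the neutrophil sum was 2806 to 14410 in saline and 2563 to 10939 in ethanol libraries. Saline 3 stood apart in immediate early genes, which respond within minutes to stimulation or handling: Fos had 181 normalized counts there and 0 to 4.01 in the other libraries, and Egr1 had 772 there against 19.1 to 83.6. In sorted cells of a bulk library, fewer cells of a type and less RNA per cell cannot be told apart.

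The ligands spanned a wide range of levels, with Ccl12 and Ccl6 at the top. Levels of different genes are compared here as normalized counts per kilobase of annotated exon, with exon lengths from GENCODE M21 (build GRCm38, matched by symbol). Ccl12 had 2856 ± 734 and Ccl6 had 2414 ± 429 per kilobase (SD, n = 8 libraries of both groups). Their ranges overlapped, although Ccl12 was the higher of this pair in 7 of 8 libraries. Ccl4 followed at 688 ± 151 and Ccl9 at 584 ± 95.5, which overlapped each other but lay below Ccl6 in every library. Ccl3 had 258 ± 64.3 and Cxcl16 had 229 ± 30.4, again overlapping with each other and lying below the whole range of Ccl9. Ccl2 had 71.9 ± 33.0 and Ccl7 had 33.9 ± 21.4, overlapping ranges below that of Cxcl16. Cxcl2 and Cxcl1 were at or near 0.

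As counts, the 10 ligands made up most of the chemokine ligand transcripts in these cells. They held 90.9% to 95.4% of the normalized counts of 38 chemokine ligand genes, with a median of 93.3% over the libraries. Ccl6 alone held 38.3% to 48.4%, Ccl9 14.9% to 21.8% and Ccl12 12.5% to 23.8%. Summed over the 10 genes, the ligands were 0.0593 ± 0.00869% of all normalized counts for saline and 0.0569 ± 0.00672% for ethanol (SD, n = 4 per group), with p = 0.771 in a two-sided exact permutation test, in which the smallest possible p is 0.0286.

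**Figure D2:**
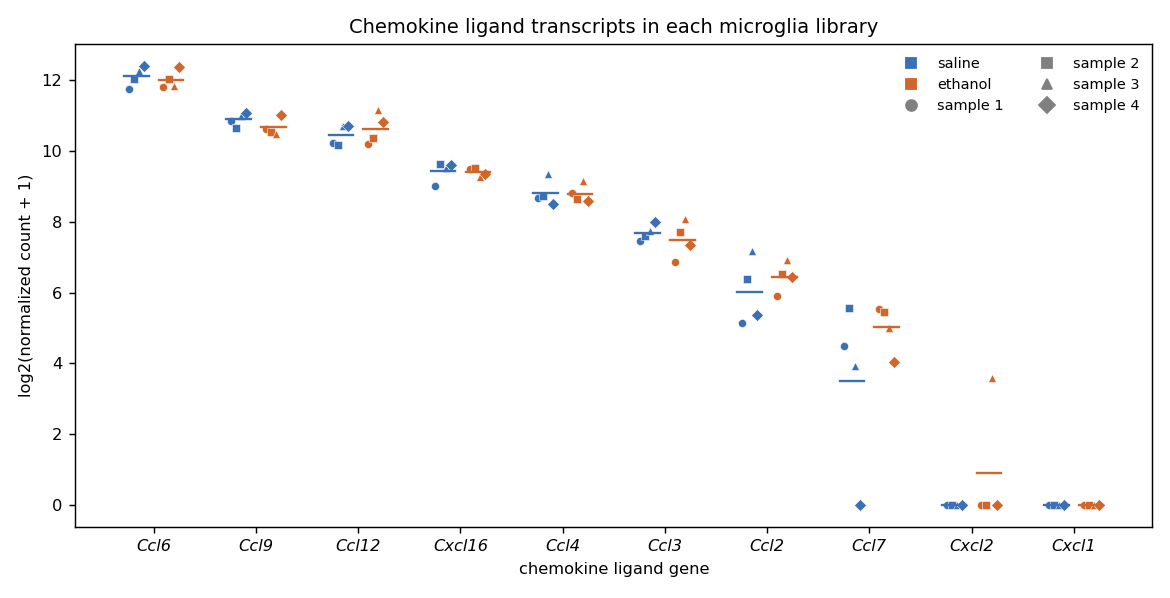
Normalized counts of the 10 ligands in each library, as log2(normalized count + 1), with saline in blue, ethanol in orange, 1 symbol per sample number and a line at each group's mean. The groups overlap for every ligand, Cxcl1 is at 0 throughout, and Ccl7 is at 0 in saline 4.

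Ccl2, Ccl7 and Ccl12 signal through Ccr2 and recruit monocytes. The 3 genes lie in 1 cluster on mouse chromosome 11, where Ccl2 and Ccl7 are next to each other and Ccl11 separates Ccl7 from Ccl12 (gene order from RefSeq, GRCm38.p6). Per kilobase, Ccl12 lay far above Ccl2 and Ccl7, whose ranges overlapped.

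Ccl12 had 1196, 1160, 1681 and 1671 normalized counts in saline 1 to 4 and 1166, 1323, 2266 and 1809 in ethanol 1 to 4. The high libraries were samples 3 and 4 of both groups and the low ones samples 1 and 2 of both groups, so the groups overlapped. The fold change was 1.13 (95% interval 0.869 to 1.47; limma adjusted p = 0.997; exact permutation p of the difference in means = 0.429). It was positive in all 20 alternatives tried, from 0.00 to 0.32 on the log2 scale. With the numeral that begins each library name added to the model, whose meaning the labels do not give, the log2 fold change was 0.28 (limma adjusted p = 0.926, unadjusted p under 0.05). Without ethanol 3, the library with the highest value, it was 0.00.

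Ccl2, the main monocyte attractant of the group, had 34.2, 82.0, 144 and 40.0 normalized counts in saline 1 to 4 and 58.7, 90.2, 119 and 86.4 in ethanol 1 to 4. The highest and the lowest value were both in saline libraries. The fold change was 1.35 (95% interval 0.750 to 2.42; limma adjusted p = 0.997; exact permutation p of the difference in means = 0.629). Saline 3, which held the highest value, is also the library with high Fos and Egr1, and the part of that in Ccl2 was not tested. Without saline 3 the log2 fold change was 0.82 in place of 0.43 (limma adjusted p = 0.994, unadjusted p under 0.05), and the other 3 saline values then reached 82.0 at most, still above ethanol 1. Over the omissions of 1 library each the log2 value ranged from 0.14 to 0.82. The sum of Fos, Egr1, Dusp1 and Ier2, chosen after their values were seen, was 2241 in saline 3 and 311 to 549 in the other libraries. Its correlation with Ccl2 was r = 0.73 (exact permutation p = 0.0108) and rho = 0.86 (exact permutation p = 0.0107), and r was 0.80 without saline 3 and ethanol 3. The same sum had r = 0.84 with Ccl4 (exact permutation p = 0.0102) and rho = 0.64 (exact permutation p = 0.0962), and that r was 0.07 without the same libraries. These are 2 of 16 relations computed with sums chosen after their values were seen, the p-values are not adjusted, and they support nothing by themselves.

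Ccl7 was the scarcest of the tested ligands. It had 21.3, 46.3, 14.3 and 0 normalized counts in saline 1 to 4 and 45.6, 43.1, 31.1 and 15.4 in ethanol 1 to 4. These values stand on 0 to 48 reads per library. The fold change of 2.87 (95% interval 0.768 to 10.7; limma adjusted p = 0.997; exact permutation p of the difference in means = 0.314) depended on saline 4, the library at 0. Without it the log2 fold change was 0.35 in place of 1.52, and edgeR, which models the counts, gave 0.73 with all libraries. Without saline 2, the highest library, it was 2.21 (limma adjusted p = 0.9998, unadjusted p under 0.05). Saline 2 also had the highest sum of border macrophage markers, 2542, and saline 4 the lowest, 522. Ccl7 and that sum had r = 0.64 (exact permutation p = 0.0931, adjusted p = 0.522) and rho = 0.79 (exact permutation p = 0.0279, adjusted p = 0.608), and their part in the Ccl7 values was not tested.

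Ccl3 and Ccl4, also called MIP-1 alpha and MIP-1 beta, attract monocytes and T cells, and Ccl3 binds Ccr1. They are neighbours on chromosome 11. Ccl3 had 176, 191, 211 and 254 normalized counts in saline 1 to 4 and 115, 209, 267 and 161 in ethanol 1 to 4. Ethanol libraries held both the lowest and the highest value, and the fold change was 0.870 (95% interval 0.614 to 1.23; limma adjusted p = 0.997; exact permutation p of the difference in means = 0.6). Without ethanol 1, the lowest library, the log2 fold change turned from -0.20 to 0.01.

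Ccl4 had 403, 423, 647 and 362 normalized counts in saline 1 to 4 and 448, 397, 567 and 387 in ethanol 1 to 4. Sample 3 was the highest library in each group, and the remaining 6 libraries lay between 362 and 448. The fold change was 0.993 (95% interval 0.764 to 1.29; limma adjusted p = 0.997; exact permutation p of the difference in means = 0.857). Without saline 3 the log2 fold change was 0.17 in place of -0.01, and quantile normalization also turned its sign, to 0.00.

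Ccl6 and Ccl9 are mouse chemokines of macrophages and myeloid cells that signal through Ccr1, and they are next to each other on chromosome 11, on the side of Ccl3 away from Ccl4. Ccl6 had 3469, 4165, 4863 and 5421 normalized counts in saline 1 to 4 and 3620, 4195, 3647 and 5289 in ethanol 1 to 4. Sample 4 was the highest library in both groups. The fold change was 0.936 (95% interval 0.773 to 1.13; limma adjusted p = 0.997; exact permutation p of the difference in means = 0.714).

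Ccl9 had 1834, 1602, 2043 and 2167 normalized counts in saline 1 to 4 and 1582, 1491, 1422 and 2075 in ethanol 1 to 4. Ethanol 1, 2 and 3 lay below all saline values, and ethanol 4 lay above 3 of the 4 saline values. Ccl9 had the smallest unadjusted p of the 8 tested ligands, with a fold change of 0.855 (95% interval 0.716 to 1.02; limma adjusted p = 0.997; exact permutation p of the difference in means = 0.229). Without ethanol 4 the log2 fold change was -0.34 in place of -0.23 (limma adjusted p = 0.999, unadjusted p under 0.05). That was the largest change from omitting a library. Over the omissions of 1 library each the log2 value ranged from -0.34 to -0.16.

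The stretches of DNA before Ccl6 and Ccl9 are shown because these neighbours had the highest positive correlation between ligands over the libraries. That correlation did not pass adjustment (r = 0.76, exact permutation adjusted p = 0.315), and r was 0.45 without saline 4 and ethanol 4. Each is the 250 bases before the gene's start from RefSeq (build GRCm38.p6, which is older than the build of the deposited table), Ccl6 at chr11:83593088-83593337 and Ccl9 at chr11:83578637-83578886, both on the minus strand. Capitals mark the longest run the windows share, of 13 bases, which begins 55 bases before the start of Ccl6 and 14 bases before that of Ccl9. How often windows of this length share such a run was not tested, nor was any part of it in the correlation.
Ccl6: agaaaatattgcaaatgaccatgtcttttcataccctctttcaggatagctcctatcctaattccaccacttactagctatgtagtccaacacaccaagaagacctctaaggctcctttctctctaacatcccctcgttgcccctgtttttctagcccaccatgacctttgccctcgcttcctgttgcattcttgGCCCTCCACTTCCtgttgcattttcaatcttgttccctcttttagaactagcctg
Ccl9: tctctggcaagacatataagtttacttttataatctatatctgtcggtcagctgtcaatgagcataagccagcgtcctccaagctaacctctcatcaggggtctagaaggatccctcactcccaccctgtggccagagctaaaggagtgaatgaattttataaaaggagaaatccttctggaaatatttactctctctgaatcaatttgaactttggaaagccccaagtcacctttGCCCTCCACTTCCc
The sequence TATAAA, the core of the TATA box, was searched on both strands. The window of Ccl9 held 3 matches, counted on both strands and partly overlapping. The nearest began 92 bases before the start, and the window of Ccl6 held none. These are matches of letters and not of function. Among the other ligands with a window, Ccl12 held 1 match, 31 bases before its start, and Ccl3, Cxcl1 and Cxcl2 held none. TATAAA was present in 12.4% of 32851 RefSeq windows of this length.

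Cxcl1 and Cxcl2 attract neutrophils through Cxcr2, and were at or near 0. Cxcl1 had 0 reads among 126538234 assigned reads in 8 libraries. A count of 0 allows up to 3 reads in a library, that is 2.73 to 3.26 normalized counts, and this limit covers counting error only. Cxcl2 had 11 reads in ethanol 3, or 11.0 normalized counts, and 0 in the other 7 libraries. Its paralog Cxcl3 was at 0 in every library. In GENCODE M21, 7.59% of the 31-base words of Cxcl2 transcripts also occur in Cxcl3, so reads from those words cannot be assigned with certainty. The transcript of Nfkbia, the NF-kB inhibitor gene that NF-kB itself induces, had 2053 to 3190 normalized counts in the same libraries.

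The windows before Cxcl1 and Cxcl2 are shown because both hold the letters of a kB motif, the binding sequence of NF-kB, although the genes gave almost no reads. They are the 250 bases before each start (RefSeq, GRCm38.p6, plus strand), Cxcl1 at chr5:90890995-90891244 and Cxcl2 at chr5:90903649-90903898. Capitals mark matches, on either strand, to GGG, any 2 bases and TTTCC.
Cxcl1: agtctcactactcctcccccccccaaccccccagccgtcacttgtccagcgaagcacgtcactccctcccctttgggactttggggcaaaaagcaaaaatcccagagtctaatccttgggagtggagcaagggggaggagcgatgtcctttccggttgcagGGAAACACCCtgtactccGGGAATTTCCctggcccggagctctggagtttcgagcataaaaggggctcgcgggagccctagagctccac
Cxcl2: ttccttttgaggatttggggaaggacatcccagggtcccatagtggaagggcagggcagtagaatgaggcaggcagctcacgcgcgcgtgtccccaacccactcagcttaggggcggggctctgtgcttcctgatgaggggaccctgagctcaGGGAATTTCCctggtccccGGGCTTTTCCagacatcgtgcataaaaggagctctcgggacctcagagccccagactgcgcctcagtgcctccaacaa
Each window held 2 matches, and the one nearest the gene began 71 bases before the start of Cxcl1 and 78 bases before that of Cxcl2. The longest run shared by both windows, of 14 bases, was GGGAATTTCCCTGG. A match to this motif was present in 1.41% of the 32851 windows. Windows were given for 6 of the 10 ligands, and among the 4 expressed ones Ccl9 held 1 match, 35 bases before its start on the minus strand of the window, while Ccl3, Ccl6 and Ccl12 held none. The letters GAAA, any 2 bases and GAAA, a core of interferon response elements present in 2.98% of windows, were in none of the 6. A match is a description of letters and not of binding.

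Cxcl16 differs from the other ligands in that it is made as a membrane-anchored protein, which also serves as a scavenger receptor, and is released by the protease Adam10. It binds Cxcr6. Cxcl16 had 519, 786, 740 and 775 normalized counts in saline 1 to 4 and 720, 734, 613 and 646 in ethanol 1 to 4. The saline libraries held the lowest value and the highest 3 values, and the fold change was 0.973 (95% interval 0.794 to 1.19; limma adjusted p = 0.997; exact permutation p of the difference in means = 0.743). Adam10 had 8343 to 9831 normalized counts. Of the 3021 annotated exon bases of Cxcl16, 552 are shared with Zmynd15 on the opposite strand, and the library kit does not mark strand, so reads of this stretch cannot be assigned with certainty. Zmynd15 had 54.5 to 122 normalized counts.

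**Figure D3:**
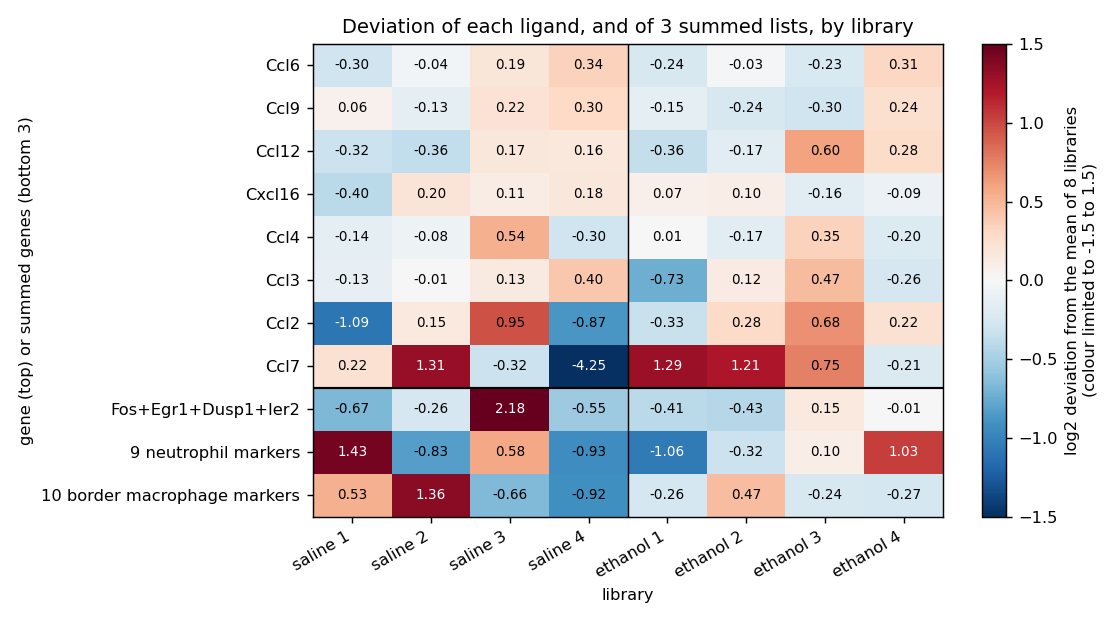
Log2 deviation of each tested ligand from its mean over the 8 libraries (top 8 rows), with the same for 3 summed lists (bottom 3 rows), colour limited to -1.5 to 1.5 and values printed. Ccl2 and Ccl4 are highest in saline 3, where the sum of Fos, Egr1, Dusp1 and Ier2 is also highest, and Ccl12 is above its mean in samples 3 and 4 of both groups.

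Of the receptors described here, Ccr1, Ccr2, Ccrl2, Ccr3 and Cxcr2 were tested and were not called either. Cxcr6, Ackr1, Ackr2 and Cxcr1 were too low to be tested, so no result is given for an ethanol effect on them. Ccr1, the receptor of Ccl3, Ccl6 and Ccl9, averaged 287 ± 83.7 normalized counts for saline and 243 ± 81.1 for ethanol (SD, n = 4 per group). Ccr2, which binds Ccl2, Ccl7 and Ccl12 and marks monocytes, had 214 ± 31.5 and 199 ± 69.6. Ccrl2, an atypical receptor that does not signal through G proteins and for which no ligand is named here, had 267 ± 66.4 and 308 ± 71.2. Ccr3, which binds Ccl7, had 27.2 ± 9.04 and 28.1 ± 14.2. Cxcr2, the neutrophil receptor of Cxcl1 and Cxcl2, had 0.908 to 42.8 over the 8 libraries. Cxcr6, the receptor of Cxcl16, had 0 to 12.5, the scavenging receptors Ackr1 and Ackr2 at most 5.14 and 5.01, and Cxcr1 was at 0 in every library. Per kilobase of exon, Ccrl2 had 111 ± 25.9 and Ccr1 had 93.6 ± 28.2 (SD, n = 8), in the range of Ccl2.

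**Figure D4:**
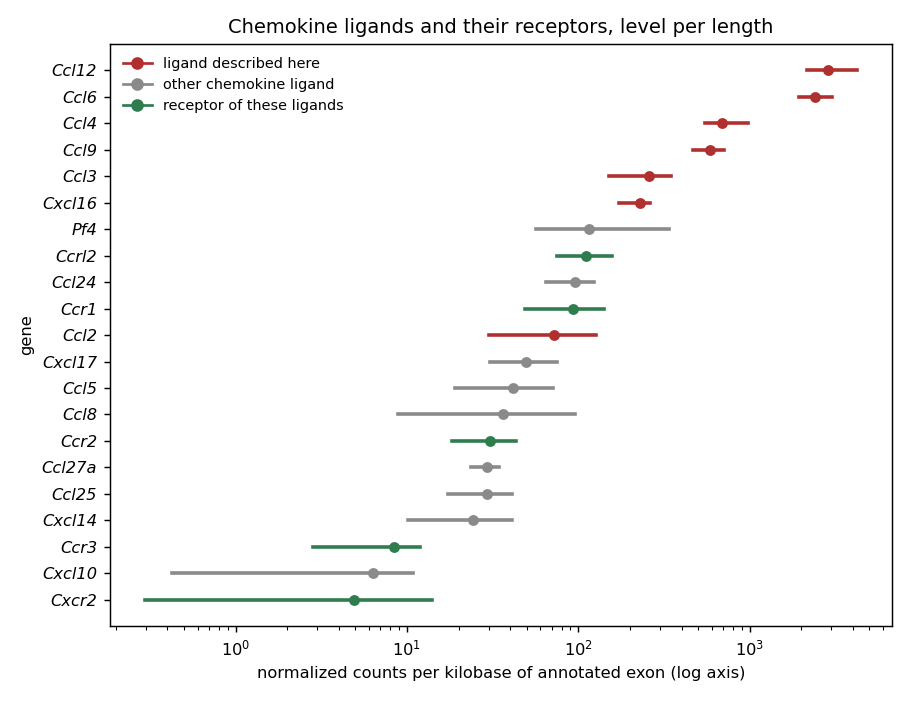
Level per kilobase of annotated exon (log axis) of the ligands described here (red), other chemokine ligands (grey) and receptors listed with the ligands described here (green). Ccrl2 is drawn among the receptors, although no ligand is named for it here. The mean is a point and the lowest and highest of 8 libraries are a line. Only genes of these kinds that were reported here and were above 0 in all 8 libraries are drawn. Cx3cr1, the fractalkine receptor gene, with a mean of 22652 per kilobase, is not drawn. Among the genes drawn, Ccl12 and Ccl6 are highest, and the receptors drawn lie below Cxcl16 in mean level. Ccl7, Cxcl1 and Cxcl2 are left out because they were at 0 in at least 1 library.

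No other gene of the chemokine system was called. Of 28 other chemokine ligands 12 were at 0 in every library and 9 were tested, and 0 of these were called, with 4 positive and 5 negative fold changes and a median log2 value of -0.03. Pf4, a platelet chemokine also made by border macrophages, averaged 107 ± 93.2 normalized counts for saline and 59.2 ± 4.37 for ethanol (SD, n = 4 per group), the saline spread coming from 243 in saline 2, the library with the highest sum of border macrophage markers. Ccl24 had a fold change of 0.945 (95% interval 0.655 to 1.36) and Ccl25 of 1.01 (0.704 to 1.44). Of 24 chemokine receptor genes 12 were tested and 0 called. Cx3cr1, the fractalkine receptor gene of microglia, had a fold change of 1.10 (0.970 to 1.24), Ccrl2 of 1.16 (0.861 to 1.56), Ccr2 of 0.892 (0.635 to 1.25) and Ccr1 of 0.831, with an interval of -0.80 to 0.26 on the log2 scale.

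Genes that induce chemokines or hold back their induction were not called. Of 25 such genes of the cytokine and NF-kB pathway 24 were tested and 0 called, and 1 had an unadjusted limma p under 0.05. This was Tnf, named after its values were seen, at 11.1 ± 6.48 normalized counts for saline and 30.2 ± 16.7 for ethanol (SD, n = 4 per group) and overlapping groups (limma adjusted p = 0.997). In 1 other of the 24 tested genes the groups did not overlap, where the share over all tested genes was 2.32%. Nfkbie, an inhibitor of NF-kB, had a fold change of 1.11 (95% interval 0.933 to 1.33), and Il6 of 1.10 (0.835 to 1.46). Nfkbiz, a nuclear co-regulator, had a fold change of 0.794 (0.607 to 1.04), and the subunit gene Relb of 0.846 (0.682 to 1.05). Of 22 immediate early genes 21 were tested and 0 called, with 6 positive and 15 negative fold changes and a median log2 value of -0.14. The one with an unadjusted limma p under 0.05 was Rhob, also named after its values were seen, with a fold change of 0.909 (0.828 to 0.998). Nr4a1 had a fold change of 2.44 (0.869 to 6.85) and Jun of 1.05 (0.736 to 1.51). Egr1 (0.715, 0.248 to 2.06) and Dusp1 (0.820, 0.418 to 1.61) had wide intervals, since saline 3 alone was high in both.

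The ligands did not form 1 block across the libraries. Over 28 pairs of the 8 tested ligands, compared as log2(normalized count + 1) in 8 libraries, 4 pairs had an exact permutation p under 0.05 for Pearson's r and 0 passed after Benjamini-Hochberg adjustment, the smallest adjusted p being 0.117. Ccl6 and Ccl9 had r = 0.76 (exact permutation p = 0.0450, adjusted p = 0.315) and Spearman's rho = 0.64 (exact permutation p = 0.0962, adjusted p = 0.673). Without the libraries farthest from the median of Ccl6, saline 4 and ethanol 4, r was 0.45, so the relation rests largely on those libraries. Ccl2 and Ccl4 had r = 0.73 (exact permutation p = 0.0432, adjusted p = 0.315) and rho = 0.55 (exact permutation p = 0.171, adjusted p = 0.673). That r was 0.74 without saline 1 and saline 4, the libraries farthest from the median of Ccl2. Saline 3 and ethanol 3, which held the highest values of both genes, stayed in, and how far the relation rests on them was not tested. Ccl7 was opposite to Ccl9, with r = -0.75 (exact permutation p = 0.00419, adjusted p = 0.117) and rho = -0.74 (exact permutation p = 0.0458, adjusted p = 0.673), and to Ccl6, with r = -0.68 (exact permutation p = 0.0239, adjusted p = 0.315) and rho = -0.62 (exact permutation p = 0.115, adjusted p = 0.673). Without saline 2 and saline 4 the r of Ccl7 with Ccl9 was -0.89, and without saline 4 and ethanol 4 that of Ccl6 with Ccl7 was -0.34, so the latter rests largely on those libraries. The neighbours Ccl3 and Ccl4 had r = 0.21.

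No relation of a ligand with a summed list passed the adjustment. Over 32 relations of the 8 ligands with 4 summed lists (immediate early genes and markers of neutrophils, border macrophages and monocytes), 2 had an exact permutation p under 0.05 for r, and the smallest adjusted p was 0.210. Ccl4 and the summed immediate early genes had r = 0.91 (exact permutation p = 0.00915, adjusted p = 0.210) and rho = 0.55 (exact permutation p = 0.171, adjusted p = 0.608). Without saline 3 and ethanol 3 that r was -0.01, so the relation rests on those 2 libraries. Cxcl16 and the summed neutrophil markers had r = -0.82 (exact permutation p = 0.0131, adjusted p = 0.210) and rho = -0.60 (exact permutation p = 0.132, adjusted p = 0.608), and r was -0.41 without saline 1 and ethanol 4, so this relation too rests largely on 2 libraries. Their part in the ligands' values was not tested.

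The genes most like each ligand across the 8 libraries were named by Pearson's r among 9219 other genes with a mean of at least 100. Only ligands with a mean of at least 100 were compared, so Ccl2 and Ccl7 were left out on both sides. With 8 libraries and this many genes, high values are reached readily, and they are given as descriptions. For Ccl12 these were Sdhb (r = 0.98), a subunit of respiratory complex II, Trit1 (0.97) and the ATP synthase subunit gene Atp5l (0.97). For Ccl9 they were Tank (0.98), Txndc9 (0.96) and mt-Rnr1 (0.95), and for Ccl6 Tbc1d23 (0.96), Ucp2 (0.95) and Chmp2b (0.94). For Ccl3 they were Sgcb (0.98), Myadml2 (0.96) and Dtwd1 (0.96), for Ccl4 Timm13 (0.95), Hmbox1 (0.95) and Mak16 (0.93), and for Cxcl16 Arl5b (0.95), Kcnj9 (0.94) and Paics (0.93). None of the ligands compared was among the 3 genes most like another of them.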

How the data were processed

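Microglial RNA (500 pg) was amplified with a SMARTer Ultra Low Input kit and made into Nextera XT libraries, per the labels' protocols, 4 per group. The submitters' processing notes name STAR 2.7.9a, featureCounts 2.0.1, Salmon 1.5.2, DESeq2 and build GRCm39, with no settings. The authors deposited 1 table of counts divided by size factors, a signal and not raw counts. All non-zero values (100%) were whole multiples of the column's smallest value, within 1e-06, so reads were recovered: 14271351 to 17231301 per library. At this depth counting error is largest for the scarce ligands, and reads carry no molecular identifiers.

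The main test was limma 3.58.1 with an intensity trend on log2(value + 1), for 14428 genes with a mean of at least 10, two-sided, Benjamini-Hochberg over all of them, threshold 0.05. For the low ligands this scale gave larger log2 fold changes than edgeR did (Ccl2 0.43 against 0.25, Ccl7 1.52 against 0.73). Single values were compared by two-sided exact permutation over 70 arrangements (smallest p 0.0286), and correlations by exact permutation of 8 libraries. Alternatives used other pseudocounts, filters, quantile normalization, added terms, omitted libraries, and edgeR 4.0.16 and DESeq2 1.42.0 on recovered reads. The limma script was tested on simulated data. The ligands and gene lists were chosen with earlier results of these data known. Named pathway genes were, in each list, the 2 with the largest positive and the 2 with the largest negative log2 fold change at a mean of at least 50. The genes most like each ligand with a mean of at least 100 were the 3 with the highest r, leaving out numbered gene models. Exon lengths, overlaps and shared 31-base words came from GENCODE M21, and promoter sequences from RefSeq (6 of 10 ligands). One receptor gene is not reported here.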

Additional observations from a re-analysis of the deposited data

Results flagged for a closer look

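Dixon's test was set up for 48 groups of 4 libraries. Cxcl1 and Cxcr1 in both groups and Cxcl2 in saline were at 0 throughout and could not be tested. In 6 of the rest, 1 library lay far from the other 3. The gap to the nearest was then most of the group's range. Chance gives about 1 in 20 where values vary continuously, which does not apply to the 4 groups described next, in which the other 3 libraries are at 0 and any read sets the library apart. Cxcl2 had 11.0 normalized counts in ethanol 3 and 0 in the other ethanol libraries. Ackr1 had 2.90 in saline 2 and 5.14 in ethanol 4, with 0 in the rest of each group, and Ackr2 had 5.01 in ethanol 3 with 0 in the rest of the ethanol group. These 4 values stand on few reads. The summed immediate early genes had 32141 in saline 3, where the next saline library had 24356. The summed border macrophage markers had 1370 in ethanol 2, where the next ethanol library had 837.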

How the results depend on the processing

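The counts of genes and of ligands called were 0 under every alternative run, a threshold of 0.10, edgeR and DESeq2 included. Ccl2, Ccl7, Ccl9 and Ccl12 kept the sign of their log2 fold change in all alternatives run. Ccl3 turned without ethanol 1, to 0.010 (range over omitted libraries -0.39 to 0.010). Within samples 1 and 2 alone the values were 0.030 for Ccl4, 0.036 for Ccl6 and 0.19 for Cxcl16, and quantile normalization gave 0.0042 for Ccl4. Over omitted libraries Ccl4 ranged from -0.13 to 0.17, Ccl6 from -0.21 to 0.0036 and Cxcl16 from -0.18 to 0.019. The cause was not tested. Of the summed marker lists 0 had an exact permutation p under 0.05, and with the mean of log2(value + 1) 1 list had, the lymphocyte markers (exact permutation p = 0.0286, the smallest possible), of which only 1 of 12 genes had a mean of at least 10. A filter at a mean of 50 left 7 ligands tested, without Ccl7.

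Sample numbers were not taken as pairs: same-numbered saline and ethanol libraries correlated at 0.01 to 0.08 in their deviations from the group means. The 8 correlations between saline and ethanol libraries within samples 1 and 2 or within samples 3 and 4 were all positive (up to 0.14), and the 8 across these sets were all negative (down to -0.10). With the set as a term 0 genes were called and 682 had an unadjusted limma p under 0.05, among them Ccl9 (limma adjusted p = 0.991). With the number as a replicate block 0 genes were called and 645, in place of 524, had an unadjusted limma p under 0.05, among them Ccl7 and Ccl9 (limma adjusted p = 0.987 for both). Each tested ligand was fitted under 20 alternatives (19 for Ccl7). A single unadjusted p under 0.05 is thus picked from many fits and supports nothing by itself. Depth limits what can be said of Cxcl1 and Cxcl2. For Ccl7 the spread between libraries (63.1%) was larger than counting error (19.2%).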
